A study of Mus musculus with 2 samples.

Results

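Collagen chain genes are the genes whose symbol reads Col, a number, the letter a and a number, such as Col1a1 and Col6a5. They were taken by that name rule, which reads no values, although the rule was chosen with earlier results of these data known. The rule found 44 genes among the 28380 genes listed in the deposited counts before cells were filtered, and all 44 had molecules in both libraries. The data are single-cell RNA sequencing counts of cells from the femur and tibia of C57BL/6 mice, male and female, at postnatal day 30. The Control library came from mice of genotype Dach1OE +/f, which carry a silent Dach1 transgene and no Cre. The Dach1OE library came from mice of genotype Apj CreERT2 - Dach1OE +/f, in which tamoxifen activates a Cre recombinase that Apj regulatory sequence drives (Apj, or Aplnr, is the apelin receptor of capillary ECs), so that cells with that driver switch the transgene on. Both groups received tamoxifen, by the methods at P1 and P2, and by the methods each library pooled 2 mice, which also came from crosses with a membrane reporter allele. There was 1 library per group. No comparison between the groups therefore has a replicate check, no p-value is given, and every interval printed here is a 95% interval that covers counting error alone.

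Collagens are extracellular proteins of chains that wind around each other into a helical trimer. Fibrillar collagens form the load-bearing fibres of bone, tendon and cartilage: type I is the main fibre of bone, type II that of cartilage, and types III, V and XI are built into or beside such fibres. Type IX and other fibril-associated collagens sit on the surface of fibres, type X is the mark of the cartilage cells that enlarge before bone replaces cartilage, and type IV forms the sheet of basement membranes around vessels. Type VI forms beaded filaments near the cell surface, types XV and XVIII are basement-membrane collagens with long sugar chains, and types XIII, XVII, XXIII and XXV are anchored in the cell membrane.

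The cells were digested and crushed out of bone after the epiphysis had been detached, and were depleted of blood-lineage, CD45+ and CD117+ cells. In the 500 to 6000 gene range and with under 25% mitochondrial molecules, 26466 of 28720 Control cells and 29317 of 32028 Dach1OE cells were kept, with a median of 3793.5 and 4055 unique molecular identifiers (UMIs, each a captured RNA molecule) per cell. Cells were assigned to classes by fixed marker genes, none of them a collagen, so that each class name below means the cells that passed the marker gate: endothelial cells (ECs, 9514 and 9991 in Control and Dach1OE), osteoblasts (2228 and 3044), marrow stromal cells (3529 and 1655), chondrocytes (3930 and 5368), mural cells of vessels (1200 and 2420), fibroblasts with tendon cells (654 and 517), septoclasts, the matrix-degrading cells at the growth plate (206 and 307), haematopoietic cells (2105 and 2279), Schwann cells (36 and 47) and muscle cells (64 and 40). Dach1 itself, the gene named in the labels, was at 5.20 and 195 CPM (the UMIs of a gene per 1000000 UMIs summed over the class) in ECs of Control and Dach1OE. Haematopoietic cells had 32.6 and 38.7 CPM. Lower levels, each higher in Dach1OE, were 3.83 and 7.38 in osteoblasts, 4.44 and 9.91 in stromal cells and 2.77 and 6.16 in chondrocytes. Mural cells had 4.67 and 13.7, fibroblasts 1.73 and 5.99 and septoclasts 1.11 and 7.39 from 1 and 11 UMIs. The source of these low levels was not tested. There were 1049 cell barcodes that occurred in both libraries, 879 of them among kept cells in each. Pairs of values below are given as Control and then Dach1OE.

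The sequence just upstream of a gene's start is shown for 3 collagens of cartilage that had chondrocytes as their class of highest level but different levels along the growth plate (below): Col9a1 and Col11a2, highest in prehypertrophic cells, and Col10a1, highest in hypertrophic cells. The windows are the 250 bases before the RefSeq start, read 5′ to 3′ on the gene's strand from GRCm38.p6, at chr1:24177360-24177609, chr17:34038888-34039137 and chr10:34389731-34389980, all on the plus strand. Capitals mark matches to any of 7 short motifs looked for on both strands: the core promoter box TATAAA, the box CCAAT, the SOX-type words ACAAAG and ACAATGG, the RUNX core TGTGGT, the E-box CACCTG and the GC box GGGCGG, none of which contains another.
Col9a1: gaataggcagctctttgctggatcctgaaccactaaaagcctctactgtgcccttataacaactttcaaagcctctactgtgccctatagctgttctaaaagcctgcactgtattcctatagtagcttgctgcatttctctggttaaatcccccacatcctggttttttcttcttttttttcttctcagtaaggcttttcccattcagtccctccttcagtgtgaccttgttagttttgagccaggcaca
Col11a2: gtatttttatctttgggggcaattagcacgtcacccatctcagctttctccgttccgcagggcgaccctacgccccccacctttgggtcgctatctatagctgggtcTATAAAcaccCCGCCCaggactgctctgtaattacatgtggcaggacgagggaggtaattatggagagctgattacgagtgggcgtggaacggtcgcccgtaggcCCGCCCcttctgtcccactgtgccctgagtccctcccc
Col10a1: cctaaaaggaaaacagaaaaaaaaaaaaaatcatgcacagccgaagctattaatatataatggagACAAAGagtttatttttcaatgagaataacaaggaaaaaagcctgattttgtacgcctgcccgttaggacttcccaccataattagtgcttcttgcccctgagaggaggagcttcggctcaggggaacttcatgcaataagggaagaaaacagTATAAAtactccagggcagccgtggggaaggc
The Col9a1 window held 0 matches. The Col11a2 window held TATAAA at -143 and GC boxes on the other strand at -133 and -38, counted from the RefSeq start, which lies upstream of the start at 34039437 in GENCODE vM21. The Col10a1 window held ACAAAG at -185 and TATAAA at -32. Of the 44 collagen genes, 35 had such a window in the RefSeq table, 38 windows in all, since some genes have several starts. TATAAA lay in 5 of the 38 windows (13.2%) and in 12.4% of all 32851 windows, CCAAT in 13 (34.2%) against 33.8%, ACAAAG in 4 (10.5%) against 16.5%, ACAATGG in 0 against 3.02%, TGTGGT in 3 (7.89%) against 14.0%, CACCTG in 4 (10.5%) against 17.2%, and GGGCGG in 22 (57.9%) against 32.7%. A match describes letters and not a bound factor.

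Collagen transcripts took up a very unequal share of the RNA of the classes. In osteoblasts they made up 31.7% in Control (31.7 to 31.8) and 31.6% in Dach1OE (31.6 to 31.6) of all UMIs. Chondrocytes followed with 14.4% and 14.6% and fibroblasts with 10.5% and 10.4%. The share was 2.62% and 3.19% in stromal cells, 2.29% and 3.08% in septoclasts, 1.89% and 2.17% in mural cells and 0.736% and 1.01% in ECs. Haematopoietic cells, which are not a known source of fibrillar collagen, still gave 0.368% and 0.555%, and that value is set beside the low levels below as the level of RNA that a cell without the gene can show.

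**Figure D1:**
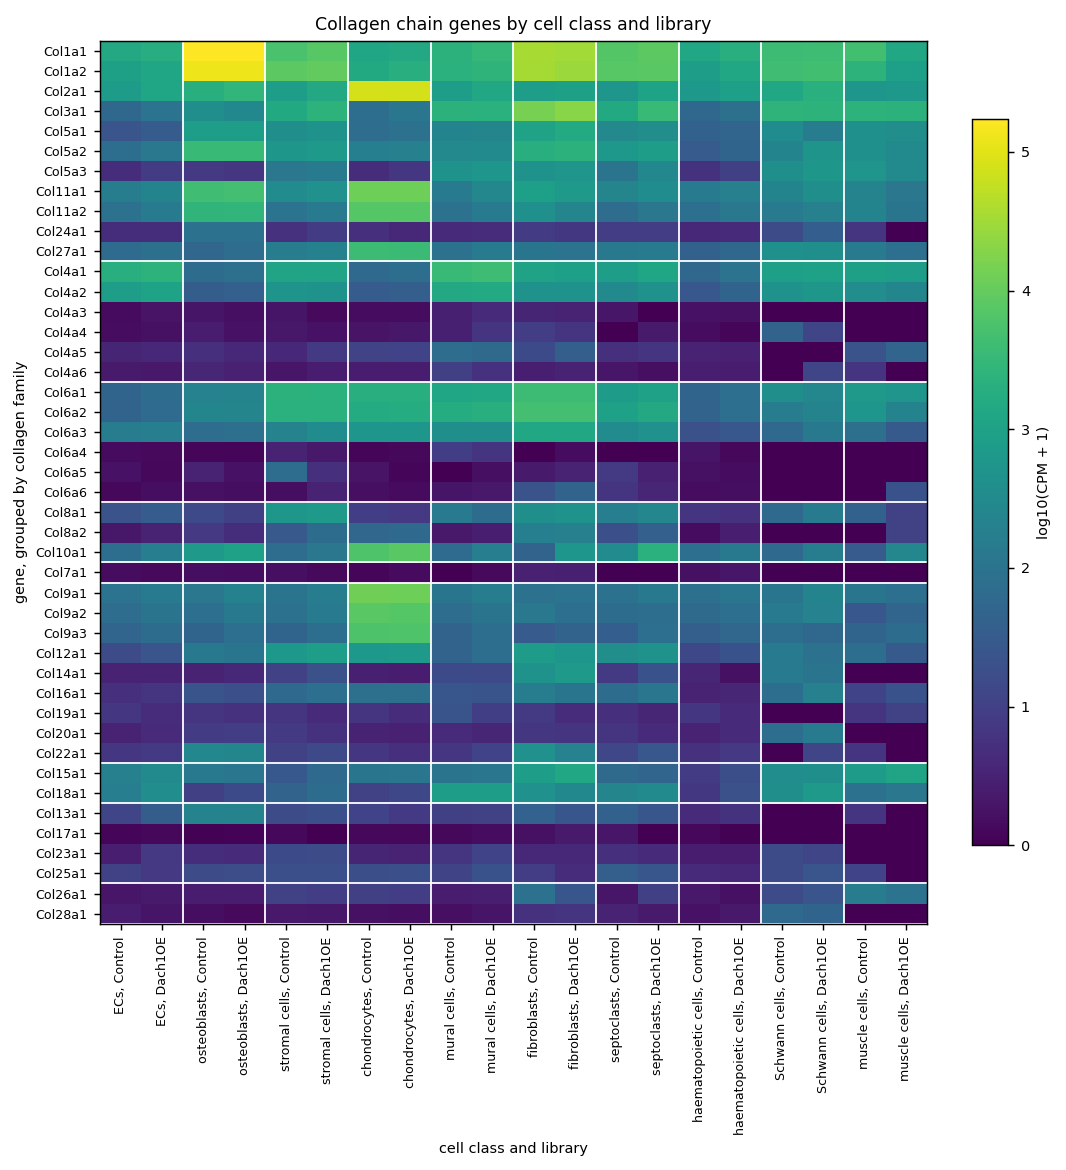
Level of each collagen gene (rows, grouped by family) in each marker-gated class (columns, Control and Dach1OE side by side), as log10 of CPM plus 1, with a colour bar for the scale. Type I stands out in osteoblasts, types II, IX, X and XI in chondrocytes, and type IV in mural cells and ECs.

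Of the 44 genes, 36 had at least 50 UMIs in the class where their level was highest, and for 30 of these 36 the same class was highest in both libraries. With the libraries pooled, the class was fibroblasts for 11 genes, chondrocytes for 8, mural cells for 7, osteoblasts for 5, stromal cells for 4 and septoclasts for 1. The 6 genes whose class differed between libraries were Col5a3, Col12a1, Col16a1, Col19a1, Col22a1 and Col23a1. In 4 of them a small class (Schwann or muscle cells) was highest in at least 1 library. For Col5a3, counted under mural cells, muscle cells were highest in Control and Schwann cells in Dach1OE.

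Among the fibrillar collagens, the chains of type I were highest in osteoblasts. Col1a1 stood at 172652 CPM in Control (172447 to 172858) and 169859 CPM in Dach1OE (169688 to 170031) and Col1a2 at 128845 and 128388 CPM, 4.96-fold and 4.07-fold over fibroblasts when the libraries were pooled. Per cell, Col1a1 had a median of 1819.8 and 1776 UMIs in every 10000 in osteoblasts, and the cell at the 10th percentile still had 571 and 669.9. Col5a2, a chain of type V that is built into type I fibres, was also highest in osteoblasts, at 3318 and 3560.4 CPM against 1998 and 2341 in fibroblasts, whereas its partner Col5a1 was highest in fibroblasts, at 1054 and 1614 CPM against 803 and 816 in osteoblasts. Col24a1, a minor fibrillar chain of bone, reached 90.4 and 92.9 CPM in osteoblasts and at most 7.77 and 8.07 CPM in any other class of over 100 cells.

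Type II and type XI were the fibrillar chains of chondrocytes. Col2a1 reached 78811 CPM in Control (78727 to 78895) and 80715 CPM in Dach1OE (80640.0 to 80789.9) there, 32.9-fold over osteoblasts, the next class. Col11a1 (12306 and 11924 CPM) and Col11a2 (7231 and 7276 CPM) were highest in chondrocytes too, but they were less exclusive: osteoblasts held 4284 and 4644 and 2624 and 2765 CPM, 2.69-fold and 2.68-fold less. Col27a1, a fibrillar chain of cartilage, lay at 3849 and 3682 CPM in chondrocytes, with 96.5% of its UMIs in gated cells there. Col3a1, the chain of type III that marks loose and vascular connective tissue, was highest in fibroblasts at 14393 CPM in Control (14255 to 14532) and 19945 CPM in Dach1OE (19757 to 20134), and was 2351 and 2206 CPM in mural cells, 1502 and 2448 in stromal cells and only 406 and 282 in osteoblasts. Col5a3 was at 474 and 574 CPM in mural cells and 469.9 and 538 in fibroblasts, and at 6.32 and 5.63 in osteoblasts against 4.78 and 8.85 in haematopoietic cells.

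The fibril-associated collagens split by class. Type IX, which coats type II fibres, was almost confined to chondrocytes among the gated cells: 98.3% of Col9a1, 98.0% of Col9a2 and 98.4% of Col9a3 UMIs were in that class, at 12780.4 and 12304, 7932 and 7277 and 6009.5 and 6132 CPM. In ECs Col9a1 was at 98.1 and 144 CPM, beside 83.9 and 114 in haematopoietic cells. Tendon cells held 207 and 159 CPM of Col9a2, beside 62.5 and 81.1 in haematopoietic cells. Col14a1, a collagen of tendon and skin, reached 477 and 655 CPM in fibroblasts. Col12a1 was shared by fibroblasts (746 and 552), stromal cells (606 and 848) and chondrocytes (607 and 692). Col22a1, a collagen of tissue junctions, was at 435 and 207 CPM in fibroblasts and 274 and 257 in osteoblasts, and at 5.70 and 4.33 in chondrocytes, with 4.69 and 6.52 in haematopoietic cells. With the libraries pooled, Col16a1 was highest in fibroblasts, at 165 and 105 CPM, but in Dach1OE it was highest in Schwann cells. Col19a1 was low throughout, 22.4 and 8.58 CPM in mural cells and 5.82 and 3.45 in haematopoietic cells.

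The chains of basement membranes followed the vessel wall. Col4a1 was highest in mural cells, at 3449 CPM in Control (3385 to 3514) and 4069.8 CPM in Dach1OE (4019 to 4121), ahead of ECs at 1882 CPM in Control (1867 to 1897) and 2445 CPM in Dach1OE (2428 to 2462). Stromal cells (1145 and 1129.6), fibroblasts (1020.3 and 896) and septoclasts (823 and 1233) came next, and osteoblasts (71.7 and 86.7) and chondrocytes (61.0 and 75.5) lay within the range of haematopoietic cells (56.2 and 100.1). Col4a2 was 1426 and 1561 CPM in mural cells, 839 and 1105 in ECs and 32.6 and 38.3 in chondrocytes. The start sites of Col4a1 and Col4a2 lay 21 bases apart on opposite strands of chromosome 8 (GRCm38, at 11312826 and 11312805). Col4a5 had another pattern: it reached 75.1 and 65.2 CPM in mural cells but was 2.51 and 2.88 in ECs and 2.35 and 1.96 in haematopoietic cells. Col18a1 was highest in mural cells (805 and 835) and was 170.2 and 367 in ECs, and Col15a1 was highest in fibroblasts (876 and 1385) and was 192 and 318 in ECs.

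The beaded-filament chains Col6a1, Col6a2 and Col6a3 were highest in fibroblasts, at 3934 and 3837, 4702 and 4672 and 1306 and 1336 CPM. Stromal cells (2275 and 2236 CPM of Col6a1), chondrocytes (1904 and 1929.5) and mural cells (1285 and 1314) held them as well, while osteoblasts had 213 and 215 CPM. The 3 paralogous chains Col6a4, Col6a5 and Col6a6 each had another class: mural cells for Col6a4 (8.41 and 5.11 CPM), stromal cells for Col6a5 (75.1 and 4.38) and fibroblasts for Col6a6 (21.0 and 46.1). The short-chain network genes also parted. Col8a1 was highest in stromal cells (600.3 and 649), Col8a2 in fibroblasts (185 and 188) and Col10a1 in chondrocytes (6382 and 8053), where only 40.6 and 48.5% of the cells had a Col10a1 UMI. Among the membrane-anchored collagens, Col13a1 was highest in osteoblasts (219 and 221) and Col25a1 in septoclasts (36.6 and 24.2, from few UMIs). With the libraries pooled, Col23a1 was highest in stromal cells (13.8 and 14.7), but in Control it was highest in Schwann cells.

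The remaining 8 genes, Col4a3, Col4a4, Col4a6, Col7a1, Col17a1, Col20a1, Col26a1 and Col28a1, had under 50 UMIs in their highest class. Col17a1, a collagen of epithelial attachment, had 77 UMIs in all kept cells and Col7a1, the anchoring fibril of skin, 137. Col20a1 and Col28a1 were highest in Schwann cells, from 17 and 8 UMIs. Col26a1 was highest in muscle cells from 42 UMIs, and in fibroblasts it had 90.1 and 24.0 CPM.

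Within the chondrocytes, subtypes gated on other markers spread along the growth plate: upper growth plate cells (282 and 475), prehypertrophic cells (2639 and 3244) and hypertrophic cells (94 and 167). Col10a1 was higher at each step along them. It was 56.6 CPM in Control (45.8 to 69.1) and 70.7 CPM in Dach1OE (61.4 to 81.0) in upper cells, then 4565 and 5036 CPM in prehypertrophic cells and 72016 CPM in Control (71386 to 72651) and 82615 CPM in Dach1OE (82116 to 83116) in hypertrophic cells, 15.8 and 16.4 times the prehypertrophic level. Col2a1, which the earlier cartilage cells make, ran the other way by a smaller step, from 84805 and 85708 over 80885 and 83886 to 58569 and 55963 CPM. Type IX was highest in the prehypertrophic cells, where Col9a1 was 13606 and 13329 CPM against 9679 and 9970.2 in the upper and 6422 and 6117 in the hypertrophic cells. Col11a2 was 5448 and 6119, 7689.9 and 7866 and 4023 and 3647 CPM along the same order, and Col27a1 was 2589 and 2695, 4221 and 4171 and 1182 and 1091.

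Differences of at least 2-fold in both libraries were counted over the genes with at least 50 UMIs in each library over the 2 subtypes set side by side. The hypertrophic cells were that far above the prehypertrophic cells in 7 of 34 members (8.22% of all genes) and below them in 4 (4.47%). Beside Col10a1, the higher ones were Col5a2 (3.64 and 3.74 times), Col3a1, Col4a5, Col5a3, Col8a1 and Col22a1, and the lower ones were Col27a1 and the 3 type IX genes. The upper cells were above the prehypertrophic cells in 8 of 36 members (6.59% of all genes) and below them in 2 (2.88%), Col10a1 and Col13a1. The 8 were Col15a1 (6.20 and 4.64 times), Col26a1 (5.50 and 6.34 times), Col24a1, Col8a1, Col3a1, Col16a1, Col8a2 and Col4a2, of which Col24a1 was lowest at 15.3 and 7.86 CPM in the upper cells. Over the chondrocytes as a class, Col3a1, Col4a2, Col5a3, Col8a1, Col13a1, Col22a1 and Col24a1 were not at least 2-fold over haematopoietic cells in both libraries. The part of free RNA in their subtype levels was not tested. A further 318 and 499 cells carried markers of both chondrocytes and osteoblasts. They held Col2a1 at 73014 and 73827 CPM, Col10a1 at 31870.2 and 35352 and Col1a1 at 14503 and 15526, against 1216 and 2770.4 CPM of Col1a1 in hypertrophic cells. Scrublet, a caller of barcodes that hold 2 cells, marked 13.8% and 15.8% of them, against 9.34% and 9.72% of all chondrocytes, and their median depth was 10669 and 11100 UMIs. The part of such barcodes in the mixture was not tested. The marker lists also shared genes: Ibsp and Alpl marked both osteoblasts and hypertrophic cells, and Sp7 both osteoblasts and prehypertrophic cells. Hypertrophic cells with much Ibsp or Alpl could thus have fallen among the mixed cells and out of the hypertrophic subtype. The part of the gates in the Col1a1 difference between mixed and hypertrophic cells was not tested.

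**Figure D2:**
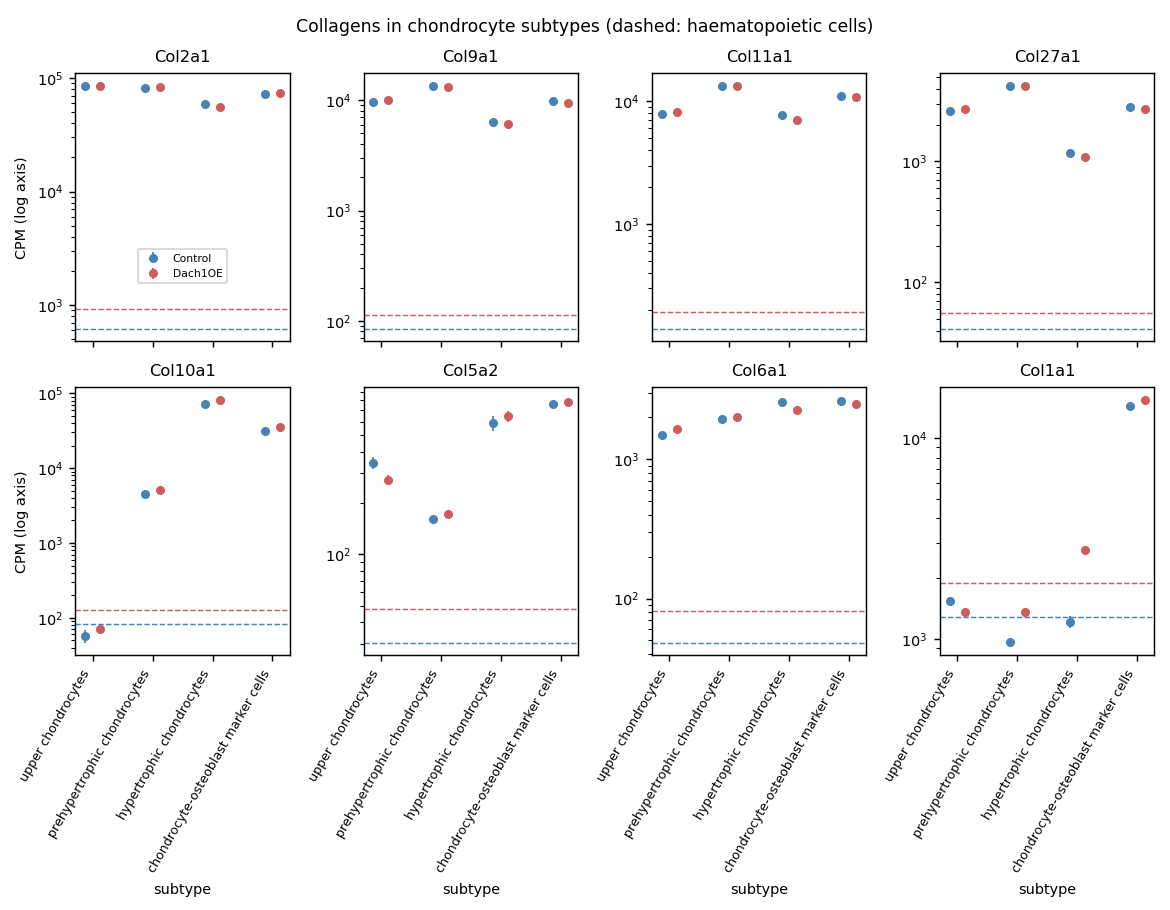
Levels of cartilage and bone collagens, in CPM on a log axis, in the chondrocyte subtypes with Control and Dach1OE as separate points, 95% Poisson intervals of counting error and dashed lines at the level in haematopoietic cells. Col10a1 is lowest in the upper cells (56.6 and 70.7 CPM) and highest in the hypertrophic cells, while Col9a1 is highest in the prehypertrophic cells.

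In ECs the collagens differed widely between subtypes. Sinusoidal ECs (bmECs, 6116 and 2635 cells), metaphyseal ECs (mpECs, 1381 and 1821), arterial ECs (aECs, 370 and 1314), remodelling ECs (rECs, 203 and 99), tip-like ECs (29 and 71) and ECs gated on Scgb3a1 and its companions (16 and 775) were told apart by markers that hold no collagen. Col4a1 was 1252 CPM in Control (1237 to 1267) and 1577 CPM in Dach1OE (1549 to 1605) in bmECs. It was 3978 and 3896 CPM in mpECs and 4119 and 3313 in aECs, and the highest value was in tip-like ECs, 6026 CPM in Control (5524 to 6560.1) and 6615 CPM in Dach1OE (6252 to 6993). Col15a1 and Col18a1 showed wider steps. Col15a1 was 30.4 and 70.6 CPM in bmECs and 619 and 766 in mpECs, 20.4 and 10.8 times as much, and it was 756 and 1127 in rECs and 1325 and 1899 in tip-like ECs. Col18a1, the precursor of endostatin, was 20.2 and 50.6 in bmECs, 373 and 458 in mpECs and 1611 and 1374 in aECs, 79.9 and 27.2 times the bmEC level, and 1241 and 1133 CPM in the 71 and 26 lymphatic ECs.

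Other vessel collagens also differed between the subtypes. Col8a1, a network collagen of large-vessel walls, was 348 and 185 CPM in aECs and 5.60 and 6.52 in bmECs, 62.1 and 28.4 times. Col5a2 was also highest in aECs among the larger subtypes, at 233 and 329 CPM against 46.3 and 75.2 in bmECs. Col6a3 ran the opposite way, 212 and 286 CPM in bmECs, 34.9 and 67.4 in mpECs and 17.6 and 26.5 in aECs. The Scgb3a1 ECs, nearly all of them in Dach1OE, held 132 and 305 CPM of Col6a3 and 1350.2 and 1416 of Col4a1. Col13a1 was 37.8 and 79.0 CPM in mpECs, 35.2 and 34.2 in aECs and 3.70 and 11.5 in bmECs. Haematopoietic cells showed 5.07 and 4.47 CPM of Col8a1, 18.5 and 25.2 of Col6a3 and 3.19 and 4.94 of Col13a1, so that the bmEC level of Col8a1 was no higher than theirs by more than a factor of 1.5.

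**Figure D3:**
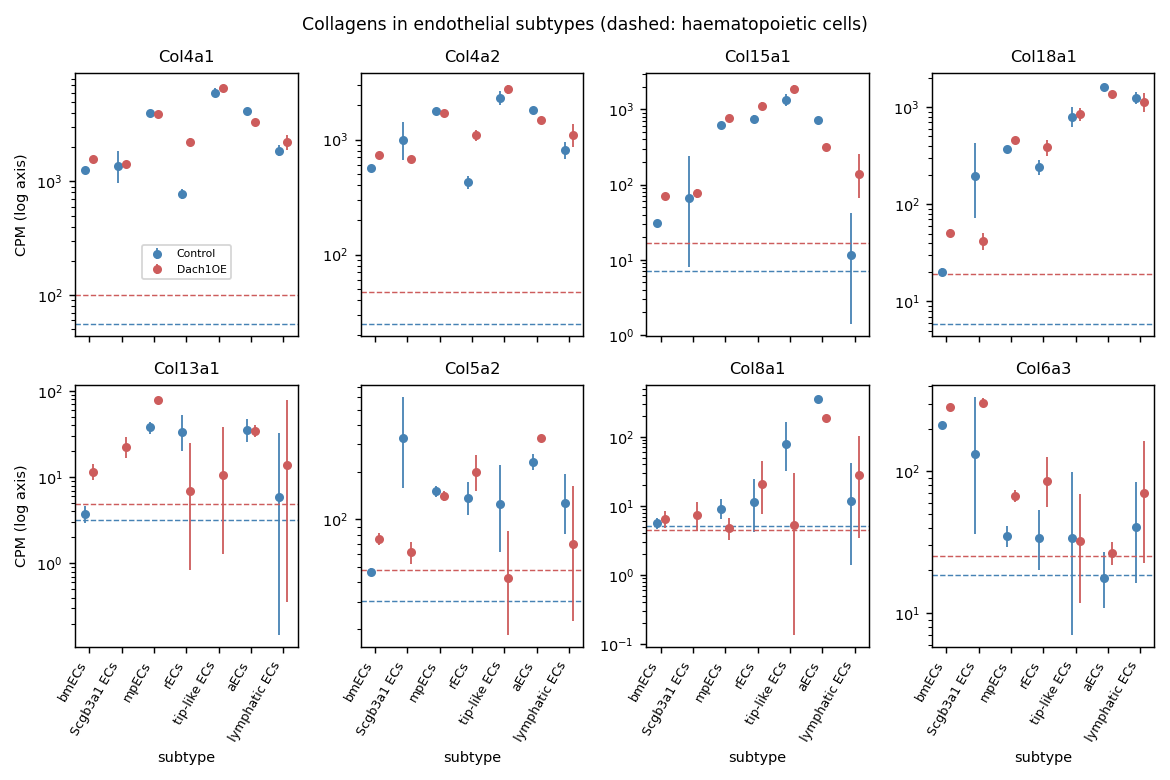
Levels of vessel collagens, in CPM on a log axis, in EC subtypes with the level in haematopoietic cells as dashed lines, Control and Dach1OE as separate points with 95% Poisson intervals of counting error. Col15a1 and Col18a1 are lower in bmECs than in mpECs, rECs, tip-like ECs and aECs in both libraries, and Col8a1 is highest in aECs.

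Subtypes of the stromal, mural, osteoblast and fibroblast classes each differed in some collagens. Diaphyseal stromal cells (dpMSCs, 2506 and 1021) had more type IV than metaphyseal stromal cells (mpMSCs, 684 and 439), for Col4a1 1468 and 1500.2 against 372 and 441 CPM. Of 30 members counted, Col4a1 and Col4a2 were at least 2-fold higher in dpMSCs in both libraries (5.29% of all genes were), and 9 were at least 2-fold higher in mpMSCs (3.38%), including Col1a1 (11739 and 16086 against 3891 and 4182 CPM), Col3a1 (4.18 and 4.31 times), Col12a1 (8.41 and 7.57 times) and Col6a3 (5.65 and 4.37 times). Pericytes (355 and 736), the mural cells of capillaries, exceeded smooth muscle cells (663 and 1347) at least 2-fold in 12 of 25 members (7.79% of all genes), with Col4a1 at 6588 and 7455 against 1617 and 1788 CPM, Col5a3 at 1158 and 1361 against 75.8 and 44.9 and Col6a2 at 3653 and 3895 against 617 and 479.7. The 1 member higher in smooth muscle cells (4.74% of all genes) was Col4a5, a type IV chain, at 131 and 120.1 CPM and 21.9 and 13.1 times the pericyte level.

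Osteoblasts that carried osteocyte markers (886 and 1091) had type I near that of the other osteoblasts, 175395 and 170719 against 170810.0 and 169363 CPM of Col1a1. Of 33 members, 3 were at least 2-fold lower in them in both libraries (0.806% of all genes) and 1 higher (0.871%). They had less Col3a1 (181 and 75.7 against 558 and 401), Col12a1 and Col16a1, and more Col10a1 (1007 and 1488 against 442 and 734). The 10 cells with most Col10a1 UMIs held 56.1% and 45.2% of the Col10a1 UMIs of osteoblasts. Tendon cells (284 and 143) exceeded non-tendon fibroblasts (354 and 346) at least 2-fold in 11 of 30 members (2.89% of all genes), which were Col1a1 (63535 and 69552 against 12412 and 16145 CPM), Col11a1 (1784 and 1612 against 128 and 212), Col12a1, Col22a1 and 7 others. The non-tendon cells were higher in 3 (7.33%), Col14a1, Col5a3 and Col6a6, with Col14a1 at 819.9 and 889 against 85.4 and 182 CPM.

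Chains that are partners in a trimer were counted in different proportions in different classes. A UMI ratio of 2 genes is not a ratio of molecules, because each gene is captured with its own efficiency, so a ratio is compared here only with the same ratio in another class. Col1a1 over Col1a2 was 1.34 in Control (1.34 to 1.34) and 1.32 in Dach1OE (1.32 to 1.33) in osteoblasts. It was 1.07 and 1.13 in fibroblasts, 0.815 and 0.76 in chondrocytes and 0.669 in Control (0.662 to 0.676) and 0.787 in Dach1OE (0.777 to 0.798) in stromal cells. Among subtypes it was 0.558 and 0.636 in dpMSCs, 0.475 and 0.455 in upper chondrocytes and 0.547 and 0.873 in hypertrophic chondrocytes. ECs gave 1.52 and 1.498 and haematopoietic cells 1.52 and 1.40, both nearer to osteoblasts than to stromal cells. In ECs and in chondrocytes, neither type I chain was at least 2-fold over haematopoietic cells in both libraries.

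Over the 7 classes compared, the type IV pair varied little. Col4a1 over Col4a2 was 2.24 and 2.21 in ECs, 2.26 and 2.33 in stromal cells, 2.42 and 2.61 in mural cells and 1.87 and 1.97 in chondrocytes. The type V pair was the least even of the 6 pairs: Col5a1 over Col5a2 was 0.242 and 0.229 in osteoblasts, 0.689 and 0.706 in stromal cells, 0.782 and 0.772 in mural cells and 0.0612 in Control (0.0351 to 0.0997) and 0.0618 in Dach1OE (0.0495 to 0.0764) in aECs. Col6a1 over Col6a2 was above 1 in chondrocytes (1.16 and 1.12) and below 1 in mural cells (0.729 and 0.694), and within stromal cells it was 1.12 and 1.11 in dpMSCs and 0.693 and 0.785 in mpMSCs. Col9a1 over Col9a2 was 1.61 and 1.69 in chondrocytes and 1.30 and 1.39 in their upper subtype, and 0.454 and 0.838 in tendon cells. Col11a1 over Col11a2 was 1.70 and 1.64 in chondrocytes and 1.63 and 1.68 in osteoblasts, but 6.77 in Control (5.87 to 7.84) and 5.27 in Dach1OE (4.54 to 6.16) in mpMSCs. There Col11a2 was at 92.8 and 141 CPM, beside 103 CPM in haematopoietic cells with the libraries pooled. Some chains were not at least 2-fold over haematopoietic cells in both libraries. They included Col1a1 and Col1a2 in mural cells, Col4a1 and Col4a2 in osteoblasts and chondrocytes, and Col5a1 in ECs and chondrocytes. Col9a1 and Col9a2 were among them in each of the 7 classes but chondrocytes. So were Col11a2 in stromal cells and in fibroblasts as a class, and both type XI chains in ECs, mural cells and septoclasts. The part of free RNA in such ratios was not tested. The differences between classes exceeded those between libraries for osteoblasts against stromal cells in the type I and type V pairs, and the counting intervals of those classes did not overlap in either library.

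**Figure D4:**
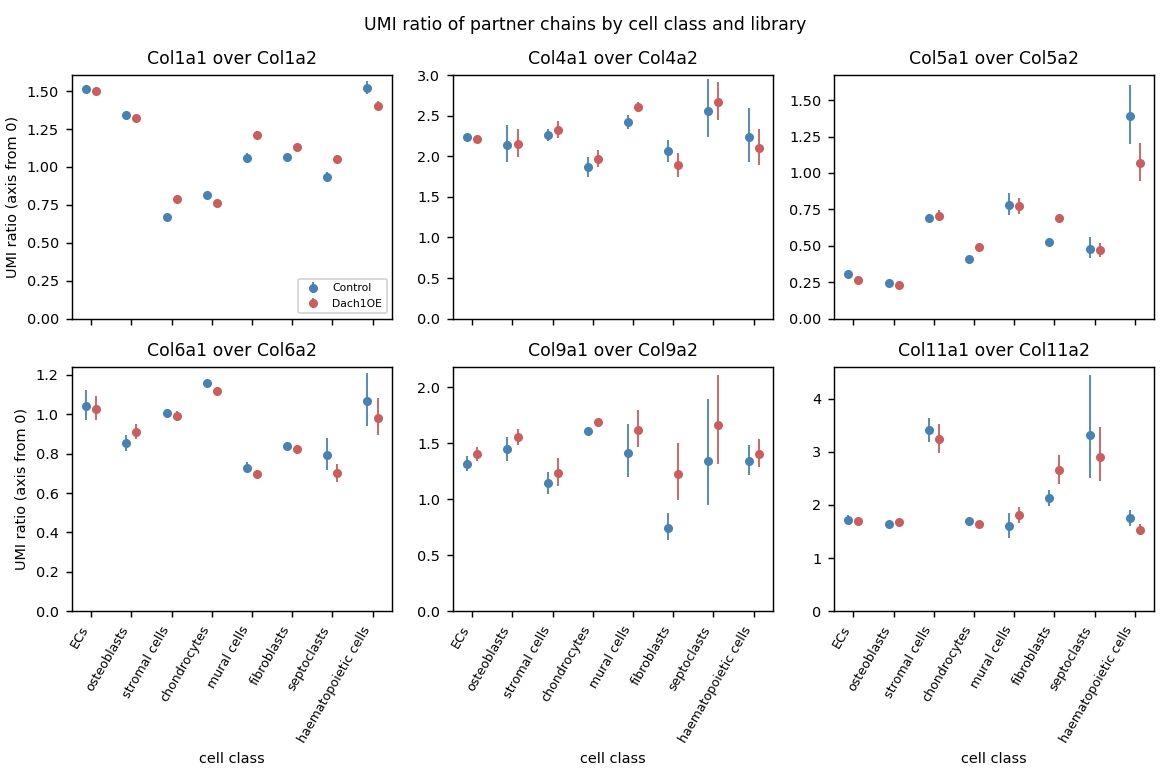
UMI ratio of the chains of 6 collagen types (panels) by class, haematopoietic cells included, on linear axes from 0, with Control and Dach1OE as separate points and 95% intervals of counting error. Col1a1 over Col1a2 is 1.34 and 1.32 in osteoblasts and 0.669 and 0.787 in stromal cells, while Col4a1 over Col4a2 lies between 1.87 and 2.67 in all classes drawn. In osteoblasts and chondrocytes the type IV chains were not at least 2-fold over haematopoietic cells in both libraries.

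Across 27 groups of cells, the classes and subtypes with both libraries pooled, the genes whose log2 levels ran most alike were often the partners of one trimer. The Pearson correlation of log2(CPM + 10), given as a description only since groups share libraries and free RNA, was 0.996 for Col4a1 with Col4a2, 0.996 for Col9a1 with Col9a3, 0.989 for Col6a1 with Col6a2, 0.982 for Col11a1 with Col11a2, 0.973 for Col1a1 with Col1a2 and 0.857 for Col5a1 with Col5a2. It was lower for other pairs that can share a trimer, 0.833 for Col6a1 with Col6a3, 0.653 for Col4a5 with Col4a6 and 0.387 for Col4a3 with Col4a4, the last from few UMIs. Pairs across types also ran alike, Col2a1 with Col9a1 at 0.991 and Col1a1 with Col22a1 at 0.916. Col4a1 with Col4a5, by contrast, was at -0.01, and Col1a1 with Col3a1, the chains of the most abundant fibres of bone and of loose tissue, at 0.43.

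The comparison of Dach1OE with Control asks how the level of these genes in each class differed between the libraries. In ECs most collagens had higher levels in Dach1OE. Of 37 members with at least 50 UMIs in ECs, 5 were at least 2-fold higher and 0 at least 2-fold lower in Dach1OE, while 3.28% of all 13958 genes with as many UMIs were at least 2-fold higher and 2.23% lower. The median log2 ratio was 0.50 over these members and 0.04 over all genes, and 33 of the 37 were above 0. In haematopoietic cells 27 of the 30 members with at least 50 UMIs there were above 0, with a median of 0.57. Only 9 of the 37 were at least 2-fold over haematopoietic cells in both libraries, beside 20.1% of all genes, and their median was 0.64, against 0.50 in the other 28. The part of free RNA in the EC values was not tested.

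The EC members past 2-fold were Col18a1, Col13a1, Col23a1, Col8a2 and Col10a1. Col18a1 was 170.2 CPM in Control (166 to 175) and 367 CPM in Dach1OE (361 to 374), a log2 ratio of 1.11 (1.06 to 1.16). Col13a1 was 11.6 and 33.5 CPM, a log2 ratio of 1.53 (1.36 to 1.71), and Col23a1, a membrane collagen, 1.80 and 6.24 CPM from 58 and 208 UMIs. Col10a1 was 78.2 and 171 CPM in ECs and 82.2 and 128 CPM in haematopoietic cells, and without the 10 cells with most Col10a1 UMIs it was 66.1 and 124 CPM in ECs, a log2 ratio of 0.91. Col8a2 rested on 37 and 77 UMIs, at 1.15 and 2.31 CPM. With the libraries pooled, haematopoietic cells had 1.12 CPM of Col8a2 and 1.59 CPM of Col23a1. Of these 5 genes, only Col18a1 and Col13a1 were at least 2-fold over haematopoietic cells in both libraries. The makeup of the ECs differed between the libraries, with 6116 and 2635 bmECs and 370 and 1314 aECs. Giving every EC subtype equal weight left a log2 ratio of -0.059 for Col18a1, 0.05 for Col8a2 and 0.76 for Col13a1, with 2 members past 2-fold in place of 5. Such weights count small subtypes, among them the Scgb3a1, tip-like and lymphatic ECs, as much as the bmECs. In the Xist-only ECs 1 member was past 2-fold higher and in the Y-only ECs 7 were.

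Within one EC subtype the ratios differed from the pooled ones. Graph clusters named as ECs were uneven between the libraries. The most uneven had 5712 and 1133, 17 and 3582 and 125 and 1943 cells, and a more even cluster 2143 and 1162. Whether the cells of a gated subtype were otherwise alike in the libraries was not tested. In bmECs, Col18a1 had a log2 ratio of 1.33 (1.13 to 1.53) and Col15a1 of 1.22 (1.05 to 1.38). In aECs the same genes were lower in Dach1OE, by -0.23 (-0.30 to -0.16) for Col18a1 and -1.19 (-1.32 to -1.07) for Col15a1, and Col8a1 was 348 and 185 CPM. Col4a1 in mpECs was almost level, 3978 and 3896 CPM, while in rECs it was 771 and 2227 CPM from 411 and 648 UMIs. Col13a1 in mpECs had a log2 ratio of 1.06 (0.80 to 1.33), which was 0.76 (0.35 to 1.19) in Xist-only and 1.99 (1.35 to 2.70) in Y-only cells. In ECs with Xist but no Y-linked UMI, Col18a1 was 195 and 346 CPM, and in ECs with Y-linked UMIs but no Xist 119.6 and 393 CPM.

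The largest log2 ratio of any collagen with at least 50 UMIs in the 7 classes was that of Col6a5, a type VI chain, in stromal cells. It was 75.1 CPM in Control (70.1 to 80.3) and 4.38 CPM in Dach1OE (2.78 to 6.58), a log2 ratio of -4.10 (-4.76 to -3.50). Most of it lay in the dpMSCs, 107 and 5.17 CPM. The Control library was itself uneven: its stromal cells with Y-linked UMIs only had 141 CPM (125 to 157) of Col6a5 and those with Xist only 15.2 CPM (11.8 to 19.2), whereas the Dach1OE cells had 4.21 and 2.62 CPM. With 2 mice in a library by the methods, the sex of the cells and the mouse they came from cannot be told apart. The highest Col6a5 count of any Control stromal cell was 6 UMIs and 14.4% of Control against 1.27% of Dach1OE cells had one.

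Of 36 stromal members with at least 50 UMIs, 3 were at least 2-fold higher (0.605% of 11899 genes) and 1, Col6a5, at least 2-fold lower (0.689%). The higher ones were Col8a2, 28.1 and 70.9 CPM with a log2 ratio of 1.34 (1.12 to 1.56), Col15a1, 26.1 and 59.9 CPM, and Col4a5, 3.02 and 6.86 CPM from 34 and 36 UMIs. Without the 10 cells with most UMIs of the gene, Col15a1 was 17.7 and 31.4 CPM and Col4a5 1.87 and 3.27 CPM, both under 2-fold, and Col8a2 20.3 and 55.7 CPM. With equal subtype weights, or by graph clusters in place of gates, 1 member was past 2-fold higher in place of 3, and the stromal makeup differed, with 2506 and 1021 dpMSCs and 684 and 439 mpMSCs. Col14a1, the next by size, was 9.32 and 18.5 CPM. In the abundant chains the ratio was smaller, for Col3a1 0.70 (0.67 to 0.74) and for Col1a1 0.44 (0.42 to 0.45). For Col1a1 it was 0.10 (0.07 to 0.13) in dpMSCs and 0.45 (0.43 to 0.48) in mpMSCs. Col1a1 was 5470 and 9269 CPM in Xist-only stromal cells but 6181 and 6093 CPM in Y-only ones. Col3a1 was 1470 and 2516 CPM in Xist-only and 1614 and 2373 CPM in Y-only cells. Col8a2 was 26.9 and 92.3 CPM in Xist-only and 27.4 and 48.8 CPM in Y-only cells. The median log2 ratio over the members was 0.43 against -0.01 over all genes. The 25 members at least 2-fold over haematopoietic cells in both libraries (23.8% of all genes were) had a median of 0.27 and the other 11 a median of 0.68.

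Mural cells had 33 members with at least 50 UMIs, of which 1 was at least 2-fold higher (0.763% of 10613 genes) and 2 at least 2-fold lower (0.905%). Col10a1, 67.3 and 174 CPM, was the higher one, and it was 82.2 and 128 CPM in haematopoietic cells. Col19a1, 22.4 and 8.58 CPM, and Col4a6, 9.04 and 4.45 CPM from 29 and 27 UMIs, were the lower ones. Col8a1 came next: 135 CPM in Control (122 to 148) and 69.8 CPM in Dach1OE (63.3 to 76.8), a log2 ratio of -0.95 (-1.14 to -0.75), with both the Xist-only cells (168 and 68.5 CPM) and the Y-only cells (195 and 86.9 CPM) lower in Dach1OE. Col23a1 was 5.30 and 10.1 CPM. Among the abundant basement-membrane chains the log2 ratio was 0.24 (0.21 to 0.27) for Col4a1 and 0.05 (-0.01 to 0.12) for Col18a1. The 22 members at least 2-fold over haematopoietic cells in both libraries (22.3% of all genes were) had a median log2 ratio of 0.08, and all 11 others were above 0, with a median of 0.64.

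In the cells that make most collagen the libraries were close. Osteoblasts had 37 members with at least 50 UMIs, 0 at least 2-fold higher (0.393% of 12731 genes) and 1 lower (0.903%), with a median log2 ratio of 0.02. Col1a1 had a log2 ratio of -0.02 (-0.03 to -0.02) and Col1a2 of -0.01 (-0.01 to -0.00). The member past 2-fold was Col6a5, 2.11 and 0.765 CPM from 33 and 17 UMIs, beside 0.608 CPM in haematopoietic cells with the libraries pooled. It was not 2-fold over haematopoietic cells in both libraries, and the call did not hold under every setting (below). The next by size were Col9a1 (117 and 201 CPM), Col9a3 (48.1 and 82.5 CPM), Col8a2 (6.32 and 3.83 CPM) and Col18a1 (8.80 and 14.1 CPM). The cartilage genes Col9a1 and Col9a3 in osteoblasts lay within 2-fold of their haematopoietic levels.

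Chondrocytes had 40 members with at least 50 UMIs, 0 at least 2-fold higher (0.35% of 14865 genes) and 1 lower (1.09%), with a median log2 ratio of 0.01. Col2a1 had a log2 ratio of 0.03 (0.03 to 0.04), Col9a1 of -0.05 (-0.06 to -0.05), Col11a1 of -0.05 (-0.05 to -0.04) and Col10a1 of 0.34 (0.33 to 0.34). Within hypertrophic cells Col10a1 had 0.20 (0.18 to 0.21) and within prehypertrophic cells 0.14 (0.13 to 0.15). The member past 2-fold was Col6a5, 0.892 and 0.235 CPM from 38 and 13 UMIs. Haematopoietic cells had 0.608 CPM of it with the libraries pooled, and the call did not hold under every setting (below). The 4 next by size were Col5a3 (3.80 and 5.67 CPM), Col13a1 (10.1 and 6.83 CPM), Col3a1 (77.2 and 112 CPM) and Col19a1 (5.19 and 3.71 CPM). None of these genes, Col6a5 included, was at least 2-fold over haematopoietic cells in both libraries.

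Fibroblasts had 31 members with at least 50 UMIs, 3 at least 2-fold higher (0.794% of 8820 genes) and 2 lower (1.29%), with a median log2 ratio of -0.01. Col26a1, 90.1 CPM in Control (79.5 to 102) and 24.0 CPM in Dach1OE (17.9 to 31.4), and Col22a1, 435 and 207 CPM, were lower. Col22a1 was 387 and 289 CPM in Xist-only fibroblasts, under 2-fold, and 563 and 125 CPM in Y-only ones. Col26a1 was 95.7 and 33.6 CPM in Xist-only and 101 and 17.3 CPM in Y-only fibroblasts. Of the 52 Dach1OE UMIs of Col26a1, 37 were in 10 cells. Without the 10 cells with most UMIs of the gene, Col26a1 was 66.9 and 7.11 CPM and Col22a1 375 and 135 CPM. Both were higher in tendon cells than in non-tendon fibroblasts in both libraries, and tendon cells were 284 and 143 in number. Within tendon cells Col26a1 had a log2 ratio of -1.37 (-1.85 to -0.92) and Col22a1 of -0.48 (-0.65 to -0.32). Col10a1, 46.2 and 563 CPM, was higher, but 1048 of its 1222 Dach1OE UMIs came from 1 cell, and without the 10 cells with most Col10a1 UMIs it was 34.5 and 59.2 CPM. Col4a5 (14.1 and 37.3 CPM) and Col6a6 (21.0 and 46.1 CPM) were the others past 2-fold. Of the Col6a6 UMIs, 60 and 97 were in non-tendon fibroblasts (354 and 346 cells), where it was 39.9 and 67.8 CPM, a log2 ratio of 0.76 (0.29 to 1.25). Col3a1 had a log2 ratio of 0.47 (0.45 to 0.49) over the class, 0.94 (0.89 to 0.98) in tendon cells and 0.19 (0.17 to 0.21) in non-tendon fibroblasts. Col1a1 had -0.14 (-0.15 to -0.13) over the class, but the opposite sign within tendon cells, 0.13 (0.11 to 0.15), and within non-tendon fibroblasts, 0.38 (0.35 to 0.41).

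Septoclasts, the smallest class compared, had 27 members with at least 50 UMIs, of which 5 were at least 2-fold higher (1.72% of 6755 genes) and 0 lower (0.947%), with a median log2 ratio of 0.50 against 0.01 over all genes. Col3a1 was 1512 CPM in Control (1433 to 1595) and 3375 CPM in Dach1OE (3282 to 3469.8), a log2 ratio of 1.16 (1.07 to 1.25), and Col5a3 102 and 278 CPM from 92 and 413 UMIs. Col10a1 was 335 and 2191 CPM, and its 10 highest cells held 90.7% and 94.9% of the UMIs, so that without them it was 33.0 and 117 CPM. Col8a2 (17.8 and 39.7 CPM) and Col9a3 (35.5 and 79.3 CPM) completed the 5. Septoclast Col8a2 rested on 16 UMIs in 5 Control cells and 59 UMIs in 16 Dach1OE cells, and the 10 highest cells held 100% and 89.8% of them. The 21 members at least 2-fold over haematopoietic cells in both libraries (22.1% of all genes were) had a median log2 ratio of 0.43 and the other 6, Col9a3 among them, a median of 0.60. Col1a1 differed less, 0.21 (0.17 to 0.26). Haematopoietic cells gave 57.1 and 84.2 CPM of Col3a1 and 4.78 and 8.85 of Col5a3.

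**Figure D5:**
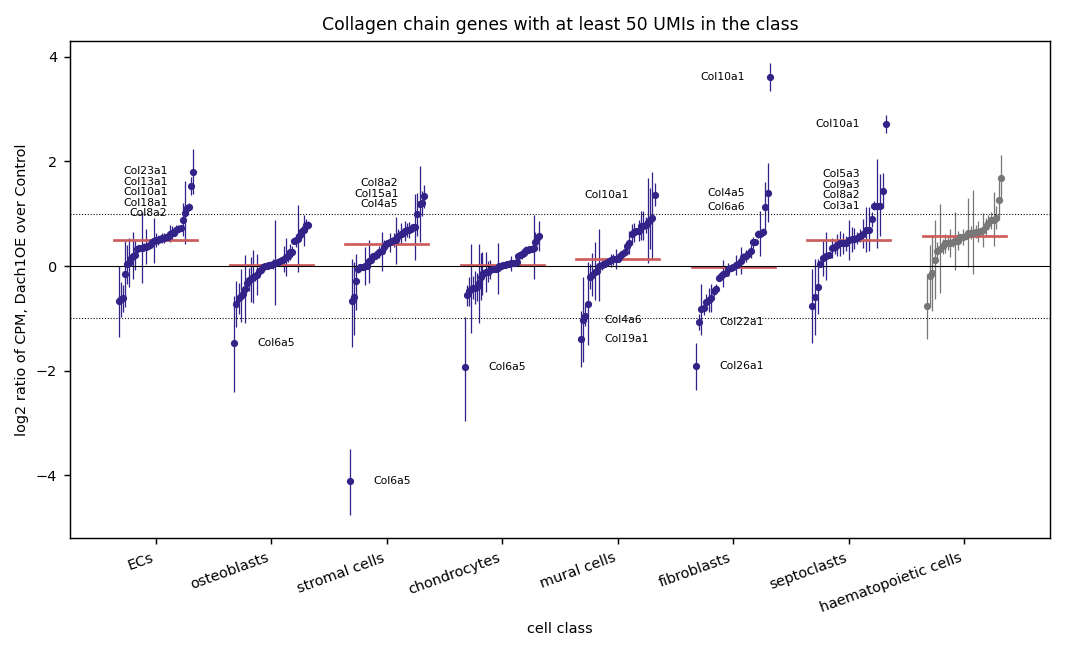
Log2 ratio of Dach1OE over Control for each collagen gene with at least 50 UMIs in a class (points in order of the ratio, by class, with 95% intervals of counting error as vertical lines), with haematopoietic cells in grey, a red line at the member median and dotted lines at a 2-fold difference. The points of ECs, stromal cells and septoclasts lie mostly above 0 (medians 0.50, 0.43 and 0.50), as do those of haematopoietic cells (median 0.57) and 25 of the 33 of mural cells, those of osteoblasts and chondrocytes close around 0, and Col6a5 lies lowest in stromal cells.

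The enzymes that fold, modify, secrete, cut and cross-link collagen, a list of 27 genes, gave few calls. Among those with at least 50 UMIs in a class, 0 were 2-fold higher in any of the 7 classes, where 0.35% to 3.28% of all genes were, and 1 was 2-fold lower, in ECs, where 2.23% of all genes were, so that these counts were near the share over all genes. In ECs the median log2 ratio of all 27 was 0.17. The lower gene was Loxl2, a lysyl oxidase that cross-links type IV collagen, at 133 and 64.4 CPM, a log2 ratio of -1.04 (-1.12 to -0.97). The collagen chaperone Serpinh1 (HSP47) was 876 and 975 CPM in ECs, 3358 and 3482 in osteoblasts and 4491 and 4477 in chondrocytes, against 77.9 and 105 in haematopoietic cells. The lysyl hydroxylase Plod2 was 1776 and 1729 CPM in chondrocytes and 827 and 802 in osteoblasts, Plod1, another lysyl hydroxylase, 279.9 and 257 in ECs, and the cross-linking enzyme Lox 1161 and 1228 in osteoblasts.

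The share of cells with a UMI was read after thinning every cell with at least 1000 UMIs to 1000 UMIs. Cells with fewer UMIs were left out of these shares. Col4a1 had a UMI in 71.2% (70.2 to 72.1) of Control cells and 78.0% (77.1 to 78.8) of Dach1OE cells among ECs, and in 3.19% and 6.81% of haematopoietic cells. Col18a1 was found in 10.9% (10.3 to 11.6) of Control cells and 20.8% (19.98 to 21.6) of Dach1OE cells among ECs and in 0.484% and 1.84% of haematopoietic cells, and Col15a1 in 12.3% and 18.7% of ECs and 0.871% and 1.12% of haematopoietic cells. Col1a1, in contrast, was in 49.7% and 61.1% of ECs and 41.9% and 55.2% of haematopoietic cells, and Col2a1 in 45.3% and 54.1% and 37.9% and 50.2%. The EC shares of Col1a1 and Col2a1 were thus close to those in haematopoietic cells, and no expression in ECs is read from them. Before thinning, the shares over all ECs were 90.2% and 92.8% for Col4a1, 18.9% and 33.8% for Col18a1 and 79.6% and 88.6% for Col1a1. Median depth was 2736 UMIs per EC in both libraries and 4228 and 3873 UMIs per haematopoietic cell.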

How the data were processed

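Cells of 1 Control and 1 Dach1OE library were captured on the BD Rhapsody system. Per the file headers, the authors ran the vendor's whole-transcriptome pipeline, version 1.11 (the methods name another release), on GRCm38 with GENCODE vM19, counting intronic reads and using refined cell calling. The deposited values are whole-number counts per cell and gene, given as reads, as raw molecules and as molecules after the authors' error correction of UMIs (the column used here). Whether counting used the strand is not given in the sources used here. Of the 44 collagen genes, 28 overlap another gene in GENCODE vM21 and 18 one on the other strand, among them Col10a1 (within Nt5dc1), Col9a3 and Col18a1, so reads could have been split or shared there. No value rests on more than 1 library per group, and all intervals cover counting error only.

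Cells with 500 to 6000 genes and under 25% mitochondrial UMIs were kept, which left 139955347 and 162789363 UMIs. For each class the 3 best markers of a cell were averaged, each scaled to its 0.9 quantile among cells with it, and a class needed a score of 0.4 and a margin of 0.1 over the next (2 markers for subtypes). 1526 and 1899 cells stayed below the gate and 1472 and 1750 between classes. Counts were summed per class and library and scaled to CPM, with exact Poisson intervals. Log2 ratios have exact conditional binomial intervals, and shares of cells exact Clopper-Pearson ones. A ratio was called at 2-fold with at least 50 UMIs over both libraries. Genes were named where they passed that rule, or the 5 largest where fewer than 5 did. Members, gene lists and gates were chosen with earlier results of these data known. No test was possible with 1 library per group. Alternatives were the raw molecules, other cell filters, graph clusters in place of gates, Scrublet doublets left out, cells of 1 sex, other scalings (edgeR's TMM factors among them), equal weights of subtypes and other thresholds. The scripts were tested on simulated counts. Software was Python 3.11.15, numpy 2.4.6, scipy 1.17.1, pandas 2.3.3, scanpy 1.11.5, R 4.3.3 and edgeR 4.0.16. Sequences are from RefSeq on GRCm38.p6.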

Additional observations from a re-analysis of the deposited data

Results flagged for a closer look

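In 4 genes the libraries differed at least 2-fold in one class and at least 1.5-fold in the opposite direction in another. These were 4 of the 39 members with at least 50 UMIs in at least 2 classes (10.3%), beside 1.25% of 13942 genes, with each ratio resting on 1 library per group, and no difference between classes was tested. Col8a2, a network collagen, had a log2 ratio of 1.01 in ECs, 1.34 in stromal cells and 1.16 in septoclasts but -0.72 in osteoblasts, so that those classes lay 1.74, 2.06 and 1.88 above osteoblasts on the log2 scale. In septoclasts its ratio rested on 16 and 59 UMIs. In osteoblasts it was at 6.32 and 3.83 CPM and in ECs at 1.15 and 2.31 CPM, beside 1.12 CPM in haematopoietic cells with the libraries pooled. Col13a1, a membrane collagen, had 1.53 in ECs but -0.82 in fibroblasts and -0.76 in septoclasts, differences of 2.35 and 2.30. Of its fibroblast UMIs, 116 and 48 were in tendon cells (284 and 143 cells), where the log2 ratio was -0.20 (-0.71 to 0.30). Col18a1, the endostatin precursor, had 1.11 in ECs but -0.68 in fibroblasts, a difference of 1.79. With equal subtype weights the EC ratio was -0.059 for Col18a1 and 0.05 for Col8a2. Col22a1, a collagen of tissue junctions, had -1.07 in fibroblasts and 0.84 in mural cells, a difference of -1.91. The mural ratio rested on 18 and 61 UMIs, at 5.61 and 10.1 CPM beside 4.69 and 6.52 in haematopoietic cells, and within tendon cells the ratio was -0.48 (-0.65 to -0.32).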

How the results depend on the processing

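Counts of members past 2-fold rested on few genes and moved by over 1.5 times in every class under some setting, and the cause was not tested. In ECs the 5 higher members became 3 without Scrublet doublets, 1 in cells with Xist only, 2 with equal subtype weights and 12 at 1.5-fold, and the 0 lower became 1, 1 and 3 under the last 3 of these and 1 at 20 UMIs or with no minimum. In osteoblasts the 0 higher became 2 by graph clusters, 1 in cells of either sex alone, 1 with no minimum and 5 at 1.5-fold, and the 1 lower became 0 at 1000 genes, under 10% mitochondrial UMIs, without doublets, in cells of 4000 UMIs and without shared barcodes, and 3 at 1.5-fold. In stromal cells the 3 higher became 1 by graph clusters or equal weights and 12 at 1.5-fold, and the 1 lower became 3 with no minimum or at 1.5-fold. In chondrocytes the 0 higher became 1 at 20 UMIs or with no minimum, and the 1 lower became 0 without doublets, in either sex alone and in cells of 4000 UMIs, and 3 with equal weights. In mural cells the 1 higher became 0 by graph clusters, 2 at 1000 genes, in cells of 4000 UMIs, without shared barcodes, with equal weights and at 20 UMIs, 3 under 10% mitochondrial UMIs, 5 in Y-only cells, 4 with no minimum and 11 at 1.5-fold, and the 2 lower became 1 with raw molecules, at 1000 genes, under 10% mitochondrial UMIs, in either sex alone and in cells of 4000 UMIs, and 4 at 1.5-fold. In fibroblasts the 3 higher became 1 by graph clusters, 0 in either sex alone, 5 with no minimum and 6 at 1.5-fold, and the 2 lower became 1 under 10% mitochondrial UMIs, by graph clusters, in Xist-only cells, in cells of 4000 UMIs and with equal weights, and 7 in Y-only cells and at 1.5-fold. In septoclasts the 5 higher became 9 with no minimum or at 1.5-fold, and the 0 lower became 1 in Y-only cells, 4 with no minimum and 2 at 1.5-fold.

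The log2 ratio of Col18a1 in ECs was -0.059 with equal subtype weights and that of Col10a1 in fibroblasts -0.38 by graph clusters. Col6a5 in stromal cells ranged from -5.06 to -2.53. Of 36 members, 31 to 36 kept their highest class under each cell setting that allowed the comparison. Leaving out shared barcodes, or the 10 cells with most UMIs of a gene, was added after seeing the data. Graph clusters held no group of septoclasts. No paired analysis was possible because each group had 1 library. Low counts limit the ratios of genes near 50 UMIs in a class, whose intervals are wide.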
